A study of Mus musculus with 9 samples.

Results

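The comparison described here is that of 4T1 cells exposed to MRC nanoparticles without light with 4T1 cells in medium alone. It was made on the 6 libraries whose titles name these groups, PBS1 to PBS3 and MRC1 to MRC3, of 9 libraries in the series. The other 3 libraries, exposed to MRC and to laser light, were not used. The 4T1 line was derived from a mammary tumour of a BALB/c mouse and spreads to distant organs from the mammary fat pad. The series concerns nanoparticles built to combine photodynamic and immunomodulatory effects, and its title names pyroptosis, a lytic form of cell death. Cells of the PBS group were kept for 12 h in DMEM and are tagged as untreated, and cells of the MRC group were kept for 12 h in DMEM that held MRC nanoparticles. The labels do not spell out what MRC stands for or give its dose, and all libraries came from this 1 line. Whether the 3 libraries of a group stem from separate cultures is not stated, and the p-values therefore speak to the spread among these libraries alone, part of which may be technical.

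Cells answer electrophiles and oxidants through NRF2, a transcription factor that is released from KEAP1 and that, with a small MAF protein, switches on genes for glutathione, thioredoxin and haem breakdown. Misfolded protein in the endoplasmic reticulum (ER) is answered by the sensors ATF6, IRE1 and PERK, which raise chaperones and, through ATF4, genes of amino acid supply. Type I interferon acts through JAK kinases and a complex that holds STAT2 and IRF9 on a large set of antiviral genes, and tumour lines often run this programme at a low level without added interferon. Growth factor signals pass through ERK kinases to immediate early genes such as Egr1 and to feedback inhibitors such as the Sprouty proteins.

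Levels are CPM, the counts of a gene scaled to a fixed library total, with the totals corrected by TMM, a trimmed mean of log ratios between libraries. Fold changes compare MRC with PBS, and adjusted p-values are those of the quasi-likelihood test of edgeR over all genes tested, with a gene called at an adjusted p under 0.05. "Rose" and "fell" are used only for called genes. Library totals lay between 15751878 and 20044166 counts, so that 3 counts, the level that a count of 0 still allows, were worth 0.150 to 0.190 CPM, for counting error only. Of 12970 genes tested 3706 were called (28.6%), 1672 higher (12.9%) and 2034 lower (15.7%). Of these 656 were at least 2-fold higher (5.06%) and 1035 at least 2-fold lower (7.98%). The 3 levels of one group all lay above those of the other in 3155 genes that were higher in MRC (24.3%) and in 3192 that were lower (24.6%). The median log2 fold change over all genes tested was -0.03.

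PBS2 stood apart from the other 5 libraries. The bin of its shortest genes lay 0.534 log2 units above the mean of the 6 libraries and its longest at -0.454. The biological coefficient of variation within PBS was 0.278 with it and 0.115 without it, against 0.0805 within MRC. Against the same mean, PBS3 ran from -0.159 in the shortest bin to 0.187 in the longest, MRC1 from -0.108 to 0.117 and MRC2 from -0.114 to 0.127. That mean includes PBS2, which by itself pushes the other libraries the opposite way. How much of a length trend these libraries have of their own cannot be read from these values. Without PBS2 6514 of 13273 genes were called (49.1%), 3247 higher (24.5%) and 3267 lower (24.6%), with 787 at least 2-fold higher (5.93%) and 1047 at least 2-fold lower (7.89%). Of the 3706 calls made with all 6 libraries, 3677 were made without PBS2 as well, all in the same direction. Leaving out any other library also moved the number of calls, to 1746 without MRC1, 2059 without MRC2, 2123 without MRC3, 2119 without PBS1 and 4544 without PBS3. In all, 1645 genes were called with 6 libraries and in each of the 6 fits that left one out, 727 higher and 918 lower, and most genes described below are among them. Where a count of list members moved by more than 1.5 times without a library, the count without it stands in parentheses. Such a count is to be read against the calls over all genes in the same fit. Without PBS2 24.5% of all genes were called higher and 24.6% lower, against 12.9% and 15.7% with all 6 libraries. Calls over all genes were fewer without PBS1 or any MRC library. Genes that took no symbol held 0.963% of the counts of MRC1, against 0.199% to 0.310% in the other libraries, and its part in any result was not tested.

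**Figure D1:**
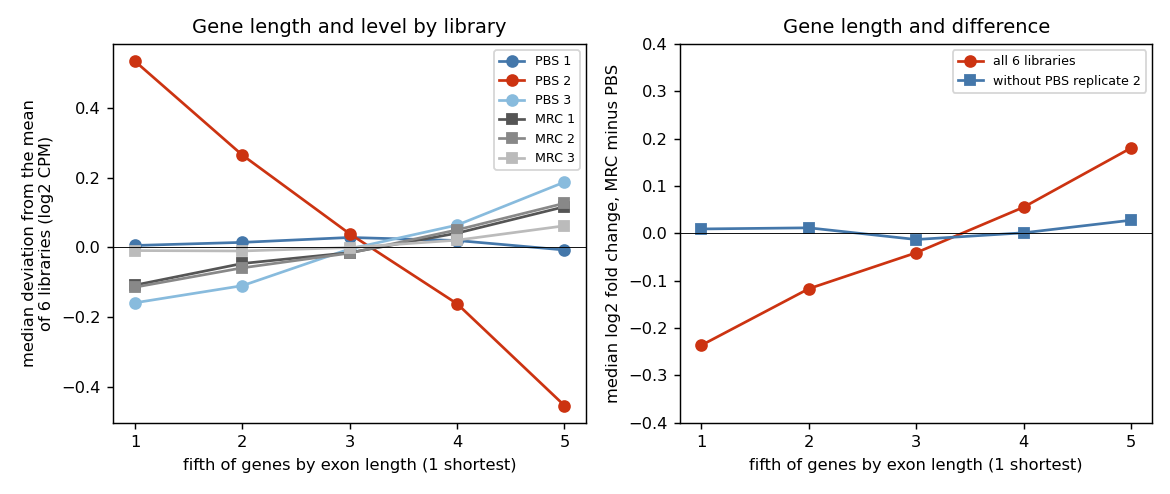
Left, the median deviation of each library from the mean of the 6 libraries (log2 CPM) in 5 bins of genes by exon length, with 1 line for each library. PBS2 runs from 0.534 in the shortest bin to -0.454 in the longest. Right, the median log2 fold change of MRC against PBS in the same bins, which runs from -0.24 to 0.18 with all 6 libraries (circles) and from -0.01 to 0.03 without PBS2 (squares).

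Markers of the labelled cell type were present in part. Krt8 and Krt18, keratins of simple epithelia, stood at 681, 906 and 564 CPM (Krt8) and 504, 824 and 402 CPM (Krt18) in PBS and at 335, 355 and 372 CPM (Krt8) and 206, 198 and 203 CPM (Krt18) in MRC. Epcam, a further marker of epithelial cells, had 0 to 5 counts in a library, and Cdh1, the epithelial cadherin, had 2.99 to 5.15 CPM. The summed level of 6 epithelial markers was 1054 to 1879 CPM in PBS and 636 to 670 CPM in MRC. Markers of other cell types were mostly near 0. The 6 leukocyte markers summed to 0 to 0.353 CPM in PBS and 0.0499 to 0.117 CPM in MRC, with Cd3e and Adgre1 among those at 0 in all 6 libraries. The 5 fibroblast markers summed to 30.9 to 59.2 CPM in PBS and 71.3 to 86.9 CPM in MRC, nearly all of it Pdgfra (called higher, but not without PBS1, MRC1, MRC2 or MRC3), while Dcn and Lum had 0 or 1 count in a library. The 4 endothelial markers summed to 3.36 to 7.39 CPM in PBS and 4.55 to 5.73 CPM in MRC, most of it Cdh5. In the longer list of 5 tested fibroblast and endothelial markers 1 (0 without PBS1 or MRC1 or MRC2 or MRC3) rose and 2 fell, with Pdgfrb at 19.7, 12.4 and 18.95 CPM in PBS and 4.39, 6.54 and 7.58 CPM in MRC (2.75-fold lower, adjusted p = 0.00622) and Fap at 2.76, 3.71 and 4.10 CPM in PBS and 1.33, 1.34 and 1.35 CPM in MRC (2.61-fold lower, adjusted p = 0.00766). The part of these differences in the results was not tested. In these bulk libraries fewer cells of a kind and less RNA per cell cannot be told apart.

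The largest rises included genes of detoxification, secreted factors and genes that were close to silent in PBS. The 15 largest changes in each direction, here and below, were taken only from genes whose groups did not overlap. Ptx3, which encodes the secreted pattern recognition protein pentraxin 3, had 2, 4 and 0 counts in PBS and 112, 80 and 147 counts in MRC (adjusted p = 0.000557). Tbcel, a tubulin chaperone-like gene, had 0, 10 and 1 counts in PBS and 183, 182 and 201 counts in MRC (adjusted p = 0.00119), and Sstr5, a somatostatin receptor, had 0, 14 and 2 counts in PBS and 254, 267 and 262 counts in MRC (adjusted p = 0.00131). Gsta1, a glutathione transferase with near-identical relatives, had 4, 17 and 0 counts in PBS and 231, 237 and 324 counts in MRC (adjusted p = 0.00150). In each of these 4 genes every MRC library held many times the counts of any PBS library, and PBS2 held the most among the PBS libraries. Car6, a secreted carbonic anhydrase, stood at 0.936, 2.41 and 1.49 CPM in PBS and 36.9, 27.5 and 29.9 CPM in MRC (log2 fold change 4.29 ± 0.32 (SE), 19.5-fold higher, adjusted p = 0.000237). Fam171b, which encodes a membrane protein, stood at 10.9, 8.72 and 15.5 CPM in PBS and 166, 149.8 and 155 CPM in MRC (log2 fold change 3.75 ± 0.23 (SE), 13.4-fold higher, adjusted p = 0.000163). The lowest MRC level of Fam171b was far above the highest PBS level. Cdsn, the adhesion protein corneodesmosin, had 3.75, 3.71 and 5.47 CPM in PBS and 48.4, 47.4 and 49.0 CPM in MRC (log2 fold change 3.49 ± 0.19 (SE), 11.2-fold higher, adjusted p = 0.000118). Acot2, a mitochondrial acyl-CoA thioesterase, had 4.53, 5.24 and 5.34 CPM in PBS and 58.1, 53.6 and 54.7 CPM in MRC (log2 fold change 3.46 ± 0.14 (SE), 11.01-fold higher, adjusted p = 0.000110). The 3 libraries of each group lay close together in both. Angptl6 and Sh2d6 completed the 15 largest rises among protein-coding genes, with Slc7a11, Hmox1, Gsta4, Il6 and Ptgs2, which are described below (12.6-fold (log2 fold change 4.26 without PBS2) for Angptl6 and 18.2-fold (log2 fold change 5.12 without PBS2) for Sh2d6).

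The largest falls were mostly of interferon-induced genes, with 3 exceptions among the 15 largest. Lgr6, a receptor for R-spondins that marks epithelial stem cells, had 23.9, 23.8 and 23.2 CPM in PBS and 1.40, 1.87 and 2.19 CPM in MRC (log2 fold change -3.68 ± 0.20 (SE), 12.8-fold lower, adjusted p = 0.000118). Eya2, a phosphatase and transcriptional co-activator of development, had 23.3, 24.0 and 26.5 CPM in PBS and 1.72, 2.28 and 2.49 CPM in MRC (log2 fold change -3.49 ± 0.19 (SE), 11.3-fold lower, adjusted p = 0.000118). Lack of overlap between the groups was a condition for being among these 15. In both genes PBS2 lay with PBS1 and PBS3. Egr1, an immediate early gene, is described with its relatives below. Uba7, the enzyme that activates ISG15 for transfer to target proteins, belongs to the interferon-induced genes and had 54.8, 57.3 and 54.4 CPM in PBS and 3.56, 6.30 and 5.24 CPM in MRC (log2 fold change -3.46 ± 0.21 (SE), 10.99-fold lower, adjusted p = 0.000174). That the groups did not overlap in Uba7 followed from the same condition. Ifi44l, Phf11b, Slfn2, Trim30d and Ifi47 also belong here, and their falls were 24.4-fold (log2 fold change -5.67 without MRC3) for Ifi44l, 14.4-fold for Phf11b, 11.4-fold for Slfn2, 10.97-fold for Trim30d and 10.9-fold for Ifi47.

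**Figure D2:**
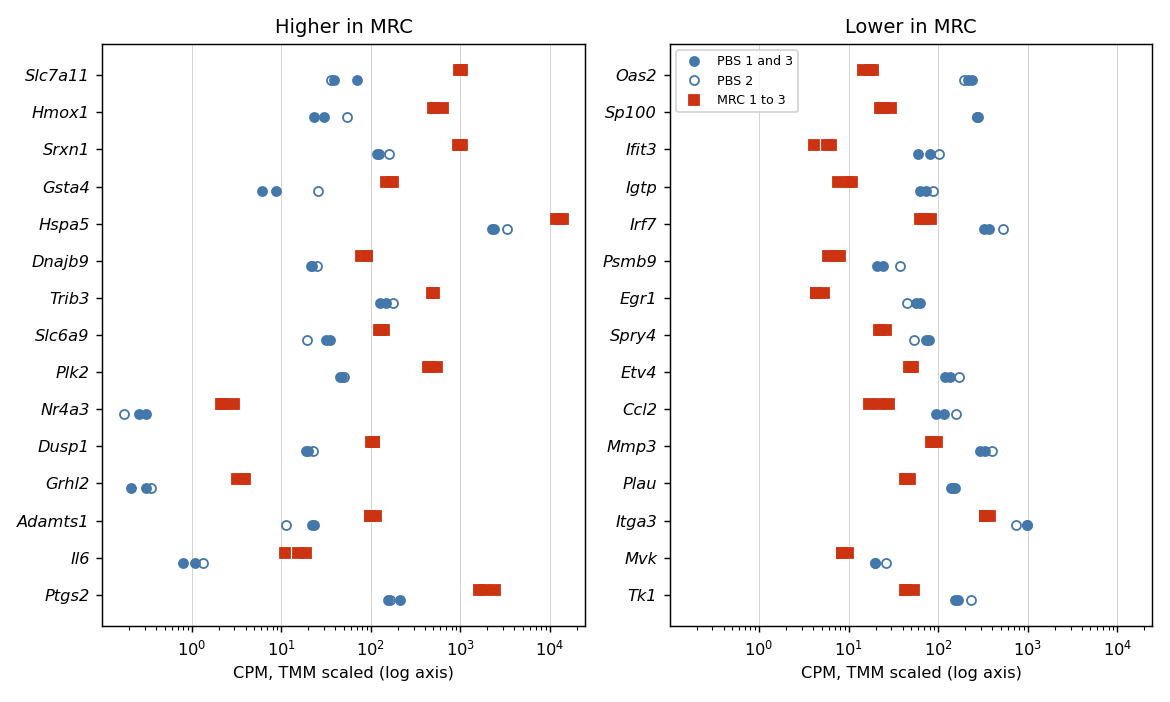
Level of 30 genes in each of the 6 libraries (CPM after TMM scaling, log axis), 15 higher in MRC on the left and 15 lower on the right, with filled circles for PBS1 and PBS3, open circles for PBS2 and squares for MRC1 to MRC3. The 30 genes were picked by hand from those known to differ. That no gene shown has an MRC level inside the range of its PBS levels therefore says nothing of other genes. Gsta4 shows how far PBS2 can lie from the other PBS libraries, at 25.7 CPM against 6.04 and 8.70.

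Genes of cystine import and glutathione synthesis rose at their entry steps. Of 17 tested members of this list 7 rose and 1 (3 without PBS2) fell, with a median log2 fold change of 0.19. Slc7a11 (chr3:49846975-50398063 on GRCm39), the light chain of the cystine importer, had 39.0, 35.6 and 69.7 CPM in PBS and 1049, 1026 and 960.0 CPM in MRC (log2 fold change 4.40 ± 0.29 (SE), 21.0-fold higher, adjusted p = 0.000187). Slc3a2, the heavy chain of the same importer, had 282, 363 and 242 CPM in PBS and 926, 883 and 937 CPM in MRC (3.10-fold higher, adjusted p = 0.000809). MRC levels lay above all PBS levels in both chains, and the fold change of the light chain was the larger. The subunits of glutamate-cysteine ligase, the first enzyme of glutathione synthesis, followed. Gclm, the modifier subunit, had 63.5, 80.3 and 66.6 CPM in PBS and 311, 273 and 301 CPM in MRC (4.21-fold higher, adjusted p = 0.000187). Gclc, the catalytic subunit, had 71.5, 72.0 and 78.4 CPM in PBS and 232, 214 and 205 CPM in MRC (2.93-fold higher, adjusted p = 0.000274). The next enzyme of the path, Gss, and glutathione reductase, Gsr, were not called (log2 fold changes 0.05 and 0.06, adjusted p = 0.847 and 0.720).

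The thioredoxin branch moved in a few members only. Of 17 tested 3 (5 without PBS2) rose and 4 (0 without MRC1 or MRC2 or MRC3, 2 without PBS1) fell, with 2 of the rises and 0 of the falls called in every fit. Over all genes 12.9% rose and 15.7% fell, and the counts of each list in this paragraph are to be read beside these shares. Srxn1, sulfiredoxin, which repairs overoxidised peroxiredoxins, had 116, 160.1 and 122 CPM in PBS and 1045, 974 and 939.5 CPM in MRC (7.43-fold higher, adjusted p = 0.000156). Txnrd1, cytosolic thioredoxin reductase, had 302, 259 and 319 CPM in PBS and 777, 779 and 775 CPM in MRC (2.65-fold higher, adjusted p = 0.000511). Thioredoxin itself, Txn1, was not called (log2 fold change -0.30, adjusted p = 0.551). Among 14 genes that supply NADPH, the electron donor of both systems, 5 (1 without PBS1 or MRC1 or MRC3, 2 without MRC2) rose and 1 (2 without PBS2) fell. Pgd, the second dehydrogenase of the pentose phosphate pathway, had 263, 321 and 249 CPM in PBS and 791, 798 and 807 CPM in MRC (2.88-fold higher, adjusted p = 0.000491). Idh1, cytosolic isocitrate dehydrogenase and a further source of NADPH, went the other way, from 57.6, 55.0 and 53.2 CPM in PBS and 23.3, 24.7 and 30.2 CPM in MRC (2.12-fold lower, adjusted p = 0.00167). The detoxification enzymes showed the same unevenness, with 4 (10 without PBS2) higher and 5 (2 without MRC1, 3 without MRC2 or MRC3) lower of 21. Gsta4, a glutathione transferase that takes lipid aldehydes, had 6.04, 25.7 and 8.70 CPM in PBS and 176, 147 and 169 CPM in MRC (log2 fold change 3.61 ± 0.51 (SE), 12.2-fold higher, adjusted p = 0.00241, log2 fold change 4.49 without PBS2). Nqo1, the quinone reductase, rose 5.06-fold, from 22.8 to 32.7 CPM in PBS to 129 to 147 CPM in MRC, whereas its relative Nqo2 fell 2.25-fold and Ugdh, which makes UDP-glucuronate, fell 1.94-fold.

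Iron and zinc genes held some of the steepest rises. In the list of haem breakdown, ferritin and iron transport 6 (11 without PBS2) of 19 tested rose and 2 (0 without PBS1 or MRC1 or MRC2 or MRC3) fell (median log2 fold change 0.56). Hmox1 (chr8:75820249-75827217 on GRCm39), the inducible haem oxygenase that frees iron from haem, had 23.4, 54.9 and 30.4 CPM in PBS and 640.4, 498 and 518 CPM in MRC (log2 fold change 3.93 ± 0.34 (SE), 15.2-fold higher, adjusted p = 0.000356). PBS2 was the highest PBS library and still lay under all MRC libraries. Slc48a1, the haem transporter of lysosomes, rose 2.19-fold, the ferrireductase Steap3 2.23-fold and the iron transporter Slc11a2 1.78-fold. Of 17 genes for metallothioneins and zinc transport 9 (5 without PBS1 or MRC1 or MRC2 or MRC3) rose and 2 (1 without PBS1 or MRC1 or MRC2 or MRC3, 4 without PBS2) fell (median 0.47). Slc30a1, the zinc exporter of the plasma membrane, had 8.43, 9.25 and 8.02 CPM in PBS and 55.5, 48.4 and 47.7 CPM in MRC (log2 fold change 2.56 ± 0.14 (SE), 5.90-fold higher, adjusted p = 0.000118). Mtf1, the zinc sensor that drives Slc30a1 and the metallothionein genes, had 21.7, 18.9 and 21.9 CPM in PBS and 34.1, 36.9 and 35.8 CPM in MRC (1.71-fold higher, adjusted p = 0.00419). Of the importers Slc39a6 rose 3.02-fold and Slc39a4 fell 2.02-fold. Mt1, metallothionein 1, was named outside the rule because its call depends on single libraries. It had 62.3, 216 and 60.8 CPM in PBS and 459.9, 475 and 549.6 CPM in MRC (log2 fold change 2.13 ± 0.49 (SE), 4.38-fold higher, adjusted p = 0.0159, log2 fold change 3.01 without PBS2, not called without PBS1 or MRC1 or MRC2 or MRC3).

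The transcript of NRF2 itself did not move with these genes. Nfe2l2, which encodes NRF2, had 218, 241 and 219 CPM in PBS and 224, 222 and 226 CPM in MRC (log2 fold change -0.01, adjusted p = 0.947, and log2 fold change 0.04 without PBS2). Keap1 had 88.4, 85.4 and 85.8 CPM in PBS and 80.1, 83.9 and 79.5 CPM in MRC (log2 fold change -0.09, adjusted p = 0.555). The groups overlapped in Nfe2l2 and did not in Keap1, whose difference was small. NRF2 is controlled mainly through the stability of its protein, which was not measured. The small MAF partners Mafg and Mafk rose (1.80-fold higher, adjusted p = 0.00298 for Mafg, and 1.77-fold higher, adjusted p = 0.00206 for Mafk). Bach1, a repressor that competes with NRF2 at the same sites, had 33.3, 22.3 and 42.4 CPM in PBS and 68.8, 67.1 and 66.1 CPM in MRC (2.06-fold higher, adjusted p = 0.0117, not called without MRC1).

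The antioxidant response element, the site bound by NRF2 with a small MAF, was searched as TGACNNNGC on both strands of RefSeq promoter windows of GRCm38.p6 that span 250 bases before and 50 after each start. It stood in 3781 of 27025 (14%) of all genes and 1614 of 9457 (17.1%) of genes tested with a window. Of the members of the 5 lists of cystine and glutathione, thioredoxin, NADPH, detoxification and iron, 14 of 74 (18.9%) held it, with 7 of 17 (41.2%) among those that rose and 2 of 13 (15.4%) among those that fell. Over all genes with a window, 247 of 1273 (19.4%) of those called higher and 249 of 1499 (16.6%) of those called lower held it. The split of list members rests on few genes and was not tested. The windows of Gclm and Txnrd1 are shown because both genes rose in every fit, each with the 250 bases before its start from 5′ to 3′ along the gene and the match, which lies on the opposite strand in both, in capitals. That of Gclm lies at chr3:122245307-122245556, plus strand, with the match beginning 134 bases before the start, and that of Txnrd1 at chr10:82858956-82859205, plus strand, with the match 92 bases before the start. The reference is that of the C57BL/6J mouse, whereas 4T1 comes from BALB/c, and a match says only that these letters are present.
Gclm: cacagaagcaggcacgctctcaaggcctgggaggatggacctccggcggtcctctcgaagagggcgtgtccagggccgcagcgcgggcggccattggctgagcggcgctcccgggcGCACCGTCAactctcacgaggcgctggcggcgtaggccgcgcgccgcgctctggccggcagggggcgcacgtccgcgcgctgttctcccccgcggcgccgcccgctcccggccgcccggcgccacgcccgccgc
Txnrd1: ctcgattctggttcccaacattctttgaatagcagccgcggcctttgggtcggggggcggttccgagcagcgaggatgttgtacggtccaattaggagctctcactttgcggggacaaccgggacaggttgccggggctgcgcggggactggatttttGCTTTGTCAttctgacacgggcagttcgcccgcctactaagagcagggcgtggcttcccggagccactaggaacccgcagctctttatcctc

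Most chaperones and disulfide isomerases of the ER rose. Of 22 tested 14 (7 without PBS1 or MRC1 or MRC2, 8 without MRC3) rose and 0 (1 without PBS2) fell (median log2 fold change 0.58, 0.68 without PBS2), and 7 rose in every fit. Hspa5 (chr2:34661982-34667559 on GRCm39), the major chaperone BiP, had 2347, 3325 and 2233 CPM in PBS and 14033, 11678 and 12813 CPM in MRC (log2 fold change 2.28 ± 0.21 (SE), 4.87-fold higher, adjusted p = 0.000429). Hyou1, an exchange factor for BiP, had 157, 132 and 156 CPM in PBS and 645, 634 and 562 CPM in MRC (4.14-fold higher, adjusted p = 0.000187). Dnajb9, a co-chaperone that delivers misfolded proteins to it, had 21.6, 25.0 and 22.1 CPM in PBS and 91.6, 77.3 and 90.0 CPM in MRC (3.77-fold higher, adjusted p = 0.000187). The MRC levels of all 3 lay above every PBS level. Ero1lb, an oxidase that feeds disulfide formation, rose 3.37-fold (adjusted p = 0.000647).

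The steps before and after folding moved in the same direction in part. In ER-associated degradation, which returns misfolded proteins to the cytosol, 11 (6 without MRC1, 7 without PBS1 or MRC3) of 19 rose and 0 fell (median 0.52). Herpud1, a scaffold of the retrotranslocation complex, rose 2.38-fold (adjusted p = 0.000584), the ubiquitin-conjugating enzyme Ube2g2 2.49-fold (adjusted p = 0.000749), the channel protein Derl1 2.12-fold (adjusted p = 0.00123) and the ligase Syvn1 2.03-fold (adjusted p = 0.00131). Protein translocation into the ER had 9 (4 without MRC1 or MRC3, 5 without PBS1, 18 without PBS2) of 22 higher and 0 lower (median 0.33, 0.58 without PBS2). Its members that rose in every fit included Sec61a1, the pore of the translocon (2.07-fold), Srprb and Srpr, the subunits of the signal recognition particle receptor (1.97-fold and 1.73-fold), and Ssr3 (1.63-fold). N-glycan synthesis had 11 (5 without PBS1 or MRC3, 6 without MRC1 or MRC2) of 27 higher and 1 (0 without PBS1 or MRC1 or MRC2 or MRC3, 2 without PBS2) lower, among them the mannosyltransferase Alg2 (2.34-fold) and Stt3a, a catalytic subunit of oligosaccharyltransferase (2.13-fold). COPII and COPI coats had 8 (3 without PBS1 or MRC1 or MRC2 or MRC3, 17 without PBS2) of 24 higher and 0 (1 without PBS2) lower, with Sec24d, a cargo adaptor of COPII, at 76.9, 49.999 and 84.8 CPM in PBS and 185, 190.2 and 183 CPM in MRC (2.64-fold higher, adjusted p = 0.00246). Of the sensors, Eif2ak3, which encodes PERK, had 17.8, 13.3 and 17.2 CPM in PBS and 44.998, 45.8 and 35.8 CPM in MRC (2.62-fold higher, adjusted p = 0.00141). Xbp1, the factor spliced by IRE1, had 65.9, 90.3 and 62.9 CPM in PBS and 176, 154 and 152 CPM in MRC (2.20-fold higher, adjusted p = 0.00294). Atf6 and Ern1, which encode ATF6 and IRE1, had log2 fold changes of 0.71 and 0.85 and were not called with all 6 libraries (adjusted p = 0.0605 and 0.0838). Both were called higher without PBS2.

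The ER stress response element, bound by ATF6 with NF-Y, was searched as CCAAT and CCACG with 9 bases of any kind between them, on both strands. It is rare, standing in 37 of 27025 (0.137%) of all windows and 17 of 9457 (0.18%) of those of tested genes. Over all genes with a window, 8 of 1273 (0.628%) of those called higher and 2 of 1499 (0.133%) of those called lower held it. It stood in 7 of 17 (41.2%) of ER chaperones and isomerases, in 2 of 15 (13.3%) of degradation genes, and in 0 of 16 (0%) of translocon genes. Hspa5 and Hsp90b1 are shown, the first for its rise and the second because it holds the element in both orientations although its own change was small. Hsp90b1, the chaperone GRP94, had 837, 932 and 777 CPM in PBS and 1295, 1128 and 1197 CPM in MRC (1.42-fold higher, adjusted p = 0.02998, not called without PBS1 or PBS3 or MRC1 or MRC2 or MRC3). The 250 bases of Hspa5 lie at chr2:34771840-34772089, plus strand, with the match starting 65 bases before the gene start, and those of Hsp90b1 at chr10:86705445-86705694, minus strand, with matches 212 and 107 bases before it, on GRCm38.p6.
Hspa5: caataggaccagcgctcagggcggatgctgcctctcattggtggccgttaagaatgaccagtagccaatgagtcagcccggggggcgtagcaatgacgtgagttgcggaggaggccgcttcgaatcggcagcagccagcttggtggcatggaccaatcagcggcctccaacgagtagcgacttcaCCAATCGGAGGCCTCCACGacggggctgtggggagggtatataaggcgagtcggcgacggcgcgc
Hsp90b1: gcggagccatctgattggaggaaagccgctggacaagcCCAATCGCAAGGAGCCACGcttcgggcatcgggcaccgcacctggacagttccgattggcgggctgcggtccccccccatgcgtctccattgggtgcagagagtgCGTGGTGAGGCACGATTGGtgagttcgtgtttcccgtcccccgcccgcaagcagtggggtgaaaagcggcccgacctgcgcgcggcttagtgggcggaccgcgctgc

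Amino acid supply rose with the factors of the integrated stress response, the pathway in which phosphorylated eIF2 favours translation of ATF4. Of 15 tested factors and feedback genes 8 (13 without PBS2) rose and 0 (1 without PBS2) fell (median log2 fold change 0.72, 0.99 without PBS2). Atf3, a factor induced by ATF4, had 35.7, 49.8 and 32.6 CPM in PBS and 259, 231 and 244 CPM in MRC (log2 fold change 2.64 ± 0.19 (SE), 6.22-fold higher, adjusted p = 0.000205). Ppp1r15a, the GADD34 subunit that reverses eIF2 phosphorylation, had 41.5, 61.5 and 41.6 CPM in PBS and 237, 199 and 213 CPM in MRC (4.48-fold higher, adjusted p = 0.000394). Trib3, a pseudokinase that restrains ATF4 and AKT, had 148, 176 and 127 CPM in PBS and 506, 482 and 501 CPM in MRC (3.30-fold higher, adjusted p = 0.000403). The MRC levels of these 3 genes lay above all PBS levels, as they did for the gene of ATF4. Atf4 itself had 438, 597 and 384 CPM in PBS and 906, 785 and 858 CPM in MRC (1.80-fold higher, adjusted p = 0.0139, not called without PBS1 or MRC1 or MRC3). Eif2ak4, the amino acid sensor GCN2, was not called (log2 fold change -0.10, adjusted p = 0.712). Among 16 amino acid transporters 12 (7 without PBS1 or MRC1 or MRC2) rose and 1 fell (median 0.85). Beside Slc7a11 and Slc3a2, the glycine transporter Slc6a9 had 31.7, 19.6 and 35.4 CPM in PBS and 129, 139 and 123 CPM in MRC (4.52-fold higher, adjusted p = 0.000672), and the lysosomal transporter Slc38a7 rose 2.86-fold (adjusted p = 0.000403).

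Some genes of tRNA charging and amino acid synthesis rose. Cytosolic aminoacyl-tRNA synthetases had 9 (5 without MRC1, 14 without PBS2) of 21 higher and 0 (1 without PBS2 or PBS3) lower (median 0.32). The alanyl-tRNA synthetase Aars had 442, 453 and 409 CPM in PBS and 984, 948 and 882 CPM in MRC (2.16-fold higher, adjusted p = 0.00103), and the synthetases Wars, Tars and Lars rose 1.91-fold, 1.72-fold and 1.61-fold. Of 16 genes of amino acid synthesis 4 (8 without PBS2) rose and 1 (0 without MRC1 or MRC2 or MRC3) fell. Asns, asparagine synthetase and a classical target of ATF4, had 493, 590.1 and 457 CPM in PBS and 1068, 926 and 943 CPM in MRC (1.91-fold higher, adjusted p = 0.00391). Its MRC levels lay above all PBS levels. Gpt2 rose 1.78-fold and Aldh18a1 1.59-fold, and the serine synthesis genes Phgdh and Psat1 were not called (log2 fold changes 0.12 and -0.10, adjusted p = 0.590 and 0.588).

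The C/EBP-ATF response element, bound by ATF4 with a C/EBP factor, was searched as TGATGNAA on both strands. It stood in 1219 of 27025 (4.51%) of all windows and 250 of 9457 (2.64%) of those of tested genes, against 6 of 16 (37.5%) of the stress response factors, 5 of 13 (38.5%) of the synthetases and 2 of 13 (15.4%) of the transporters. With amino acid synthesis included, 16 of 56 (28.6%) of list members held it, and 8 of 27 (29.6%) of those that rose. Over all genes with a window, 44 of 1273 (3.46%) of those called higher and 39 of 1499 (2.6%) of those called lower held it. Slc7a11 and Asns are shown, the first with the largest rise among list members that held it and the second as a classical target. In Slc7a11 the matches lie 66 and 47 bases before the start on opposite strands (chr3:50443614-50443863, minus strand), and in Asns the match begins 23 bases before it (chr6:7693210-7693459, minus strand), both on GRCm38.p6. Slc7a11 held no antioxidant response element of the searched form in its window.
Slc7a11: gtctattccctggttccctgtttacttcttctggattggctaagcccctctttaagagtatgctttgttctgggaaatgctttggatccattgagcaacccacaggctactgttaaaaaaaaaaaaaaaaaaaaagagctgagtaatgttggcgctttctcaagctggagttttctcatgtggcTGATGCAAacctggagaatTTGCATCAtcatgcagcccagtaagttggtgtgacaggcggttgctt
Asns: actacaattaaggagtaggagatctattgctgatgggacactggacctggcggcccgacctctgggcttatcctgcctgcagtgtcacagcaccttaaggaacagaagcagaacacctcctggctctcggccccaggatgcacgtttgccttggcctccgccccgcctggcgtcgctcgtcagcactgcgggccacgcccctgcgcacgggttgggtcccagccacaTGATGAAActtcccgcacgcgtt

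Cytosolic heat shock chaperones rose in part. Of 22 tested 11 (4 without MRC1, 5 without PBS1, 6 without MRC2, 19 without PBS2) rose and 1 (0 without PBS1 or MRC1 or MRC2 or MRC3) fell (median log2 fold change 0.52). Hspa1b, an inducible HSP70 whose reads can also fit its near-identical neighbour Hspa1a, had 6.66, 29.4 and 26.3 CPM in PBS and 218, 176 and 188 CPM in MRC (log2 fold change 3.22 ± 0.49 (SE), 9.34-fold higher, adjusted p = 0.00314). PBS1 was low against PBS2 and PBS3, and all 3 lay far under MRC. Hsp90aa1, the inducible HSP90, had 1872, 1777 and 1839 CPM in PBS and 3746, 3151 and 3503 CPM in MRC (1.90-fold higher, adjusted p = 0.00300), Hsph1 rose 1.96-fold and the small chaperone Hspb8 1.76-fold. Hsf1, the heat shock factor, was not called (log2 fold change 0.32, adjusted p = 0.185). The chaperonin TRiC with prefoldin had 0 (6 without PBS2) of 14 members higher and 0 (1 without PBS2, 2 without PBS3) lower (median 0.06). Of 12 mitochondrial chaperones and proteases 6 (2 without PBS1 or MRC1 or MRC3) rose and 0 fell (median 0.32), with Hspa9, mitochondrial HSP70, at 1005, 1097 and 926 CPM in PBS and 1869.8, 1666 and 1682 CPM in MRC (1.72-fold higher, adjusted p = 0.00550).

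Proteasome subunits split by kind. Of 18 subunits of the regulatory cap 2 (1 without PBS1 or MRC1 or MRC2 or MRC3, 10 without PBS2) rose and 0 (1 without PBS3) fell, with only Psmd11 called in every fit (1.70-fold, adjusted p = 0.00298), and of 14 core subunits 0 (3 without PBS2) rose and 0 fell. Of 5 tested genes of the immunoproteasome and its activator, the interferon-induced form that cuts peptides for MHC class I, 5 (2 without MRC1 or MRC2, 3 without MRC3) fell (median -1.44). Psmb9 had 24.5, 37.6 and 20.8 CPM in PBS and 5.85, 7.30 and 8.08 CPM in MRC (3.90-fold lower, adjusted p = 0.00169). Psmb10 had 60.5, 94.4 and 44.991 CPM in PBS and 17.5, 17.3 and 22.8 CPM in MRC (3.47-fold lower, adjusted p = 0.00333). PBS2 was the highest library for both, and the MRC levels were under those of PBS1 and PBS3 as well. Sqstm1, the autophagy receptor p62 that also binds KEAP1, had 744, 1030.3 and 653 CPM in PBS and 3749.9, 3346 and 3432 CPM in MRC (log2 fold change 2.12 ± 0.20 (SE), 4.34-fold higher, adjusted p = 0.000513). Of 24 autophagy genes 8 (3 without PBS1 or MRC1 or MRC3, 4 without MRC2) rose and 1 (0 without MRC1) fell, among them Gabarapl1 (2.30-fold) and Atg13 (1.79-fold), while in the lysosome list 4 (1 without MRC1, 2 without PBS1 or MRC2 or MRC3, 10 without PBS2) rose and 4 (0 without MRC1, 1 without PBS1 or MRC2 or MRC3, 7 without PBS2) fell of 33, shares close to those over all genes. Tfeb, the factor that drives lysosomal genes, had 18.8, 21.6 and 12.6 CPM in PBS and 8.20, 10.2 and 8.98 CPM in MRC (1.94-fold lower, adjusted p = 0.0168, not called without PBS1 or MRC1 or MRC2 or MRC3).

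Genes of ribosome biogenesis rose as a large group, while those of the ribosome itself gave no call with all 6 libraries. Of 40 tested nucleolar factors 28 (14 without MRC1, 16 without PBS1, 18 without MRC2) rose and 0 fell (median log2 fold change 0.70, 0.69 without PBS2). Heatr1, a factor of early ribosomal RNA processing, had 90.7, 60.1 and 102 CPM in PBS and 245, 223 and 202 CPM in MRC (2.65-fold higher, adjusted p = 0.00282). The helicase Ddx21 had 269, 207 and 301 CPM in PBS and 644, 589 and 557 CPM in MRC (2.30-fold higher, adjusted p = 0.00230), and Nop2 and Wdr43 rose 1.95-fold and 1.80-fold. In all of these the lowest MRC level lay above the highest PBS level. Myc, the factor that drives many of these genes, had 355, 400.4 and 328 CPM in PBS and 828, 799.9 and 749.7 CPM in MRC (2.19-fold higher, adjusted p = 0.00123). Of 46 cytosolic ribosomal protein genes 0 (39 without PBS2) rose and 0 fell, with a median of -0.05 that became 0.41 without PBS2. These genes are short, as are those most raised in PBS2, and how much of the difference between both fits comes from length was not tested. The nuclear-encoded subunits of the respiratory chain, short genes as well, had 0 (3 without PBS2) of 57 higher and 12 (0 without MRC1, 1 without MRC2 or MRC3, 2 without PBS1, 19 without PBS2, 37 without PBS3) lower (median -0.57, -0.22 without PBS2). Genes of the mitochondrial genome took 2.34% to 2.69% of counts in PBS and 1.75% to 2.06% in MRC. Of its 12 tested protein-coding genes 1 (0 without PBS1 or MRC1 or MRC2, 8 without PBS2, 9 without PBS3) fell. Mitochondrial ribosomal proteins had 2 (0 without PBS1 or MRC1 or MRC3, 1 without PBS3 or MRC2, 19 without PBS2) higher and 2 (0 without MRC1 or MRC2 or MRC3, 1 without PBS1, 7 without PBS2, 13 without PBS3) lower of 55, under the shares over all genes with all 6 libraries.

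Interferon-stimulated genes fell almost without exception. Of 41 tested effector genes 38 fell and 1 (2 without PBS2) rose (median log2 fold change -2.02, -2.07 without PBS2), against 15.7% lower over all genes, and 32 fell in every fit. Oas2 (chr5:120868398-120887918 on GRCm39), which makes the 2-5A signal that activates RNase L, had 236, 196 and 216 CPM in PBS and 14.5, 17.2 and 18.7 CPM in MRC (log2 fold change -3.68 ± 0.16 (SE), 12.9-fold lower, adjusted p = 0.000110). Sp100, a component of nuclear bodies, had 272, 280.3 and 271 CPM in PBS and 22.3, 25.0 and 29.9 CPM in MRC (log2 fold change -3.41 ± 0.15 (SE), 10.6-fold lower, adjusted p = 0.000110). The levels of both genes in MRC were far from those in any PBS library. The antiviral GTPase Mx2 had 86.5, 101 and 82.8 CPM in PBS and 12.8, 12.7 and 15.7 CPM in MRC (6.56-fold lower, adjusted p = 0.000124). Ifit3, which assists binding of foreign RNA, had 81.7, 102 and 59.9 CPM in PBS and 4.13, 5.66 and 6.33 CPM in MRC (15.1-fold lower, adjusted p = 0.000187). Every MRC level of these 4 genes lay below every PBS level, PBS2 included, which for Oas2 and Ifit3 was a condition of their choice. Oasl1, a family member that restrains translation of IRF7, was the only effector that rose with all 6 libraries, at 259, 265 and 239 CPM in PBS and 397, 403 and 411 CPM in MRC (1.59-fold higher, adjusted p = 0.00539). Oasl1 was chosen after its values were seen, as was Rsad2, the antiviral enzyme viperin, which was not called (log2 fold change -0.49, adjusted p = 0.0629). Oasl2, a close relative, fell 5.27-fold.

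The GTPases that act on intracellular pathogens had the lowest median of all lists with at least 9 tested members. Of 16 guanylate-binding proteins and immunity-related GTPases 15 fell and 0 rose (median -2.58). Irgm1 had 161, 173 and 149 CPM in PBS and 22.8, 24.5 and 28.1 CPM in MRC (6.396-fold lower, adjusted p = 0.000118). Gbp3 had 176, 199 and 166 CPM in PBS and 21.6, 23.7 and 30.9 CPM in MRC (7.08-fold lower, adjusted p = 0.000174). Iigp1 had 128, 101 and 121 CPM in PBS and 4.77, 6.83 and 12.47 CPM in MRC (14.4-fold lower, adjusted p = 0.000396). In Iigp1 the MRC libraries themselves ranged more than 2-fold, and all lay far under PBS. Several of these genes have close paralogs, so that the split of reads among them is uncertain.

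Several genes that act downstream of the interferon receptors fell. Of 21 receptors, kinases, factors and feedback genes 10 fell and 1 (0 without PBS1 or MRC1 or MRC2 or MRC3, 3 without PBS2) rose. The receptor chains Ifnar1, Ifnar2, Ifngr1 and Ifngr2 were not called (log2 fold changes 0.05, 0.39, -0.33 and -0.44, adjusted p = 0.783, 0.0987, 0.0758 and 0.0736). Jak2 had 197, 165 and 233 CPM in PBS and 57.1, 59.9 and 61.1 CPM in MRC (3.34-fold lower, adjusted p = 0.000396). Stat2 had 176, 136 and 178 CPM in PBS and 67.6, 71.5 and 68.5 CPM in MRC (2.36-fold lower, adjusted p = 0.00105). Stat2 acts in a complex with Irf9, which fell 1.98-fold. Irf7, the factor that amplifies interferon production, had 372, 528 and 326 CPM in PBS and 62.3, 69.0 and 83.0 CPM in MRC (5.72-fold lower, adjusted p = 0.000378), and Irf1 fell 2.27-fold, while Irf3 was not called with all 6 libraries (log2 fold change -0.61, adjusted p = 0.0676). Among 19 sensors of nucleic acids and their adaptors 11 fell and 0 (1 without PBS2) rose. Zbp1, a sensor of Z-form nucleic acid, had 93.0, 120.5 and 77.2 CPM in PBS and 11.1, 10.6 and 14.3 CPM in MRC (8.05-fold lower, adjusted p = 0.000205). The RIG-I gene Ddx58 had 334, 260.4 and 344 CPM in PBS and 67.8, 87.7 and 89.5 CPM in MRC (3.83-fold lower, adjusted p = 0.000412), its relative Dhx58 fell 5.44-fold and the kinase Ikbke 4.13-fold. Peptide loading on MHC class I fell in part, with 5 (3 without MRC1) of 14 lower and 2 (0 without PBS1 or MRC1 or MRC2 or MRC3) higher. Tapbp, tapasin, had 322, 366 and 286 CPM in PBS and 96.0, 93.6 and 106 CPM in MRC (3.29-fold lower, adjusted p = 0.000316), and the peptide transporter Tap1 fell 2.25-fold. The class I heavy chain genes H2-K1 and H2-D1 and the light chain B2m were not called (log2 fold changes -0.48, -0.43 and -0.41, adjusted p = 0.177, 0.195 and 0.279).

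The interferon-stimulated response element was searched as a GAAA followed, after 2 bases of any kind, by another GAAA, on both strands. It stood in 1079 of 27025 (3.99%) of all windows and 354 of 9457 (3.74%) of those of tested genes. Over all genes with a window, 46 of 1273 (3.61%) of those called higher and 99 of 1499 (6.6%) of those called lower held it. It stood in 10 of 10 (100%) of the GTPases, 12 of 30 (40%) of the effectors, 3 of 15 (20%) of the sensors and 3 of 11 (27.3%) of the MHC class I genes with a window. Isg15 and Ifit3 are shown because the first holds 3 overlapping matches and the second a pair with a gap. Isg15, the ubiquitin-like modifier, had 244, 415 and 193 CPM in PBS and 60.2, 58.8 and 75.8 CPM in MRC (4.38-fold lower, adjusted p = 0.00200). Its matches begin 78, 72 and 66 bases before the start and appear as 1 run of capitals (chr4:156200819-156201068, minus strand). Those of Ifit3 begin 156 and 122 bases before the start and lie on the opposite strand (chr19:34583279-34583528, plus strand), both on GRCm38.p6.
Isg15: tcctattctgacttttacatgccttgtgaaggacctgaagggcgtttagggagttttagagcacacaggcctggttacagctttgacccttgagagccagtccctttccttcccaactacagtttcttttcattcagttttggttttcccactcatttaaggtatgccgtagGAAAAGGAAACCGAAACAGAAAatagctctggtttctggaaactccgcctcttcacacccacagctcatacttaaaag
Ifit3: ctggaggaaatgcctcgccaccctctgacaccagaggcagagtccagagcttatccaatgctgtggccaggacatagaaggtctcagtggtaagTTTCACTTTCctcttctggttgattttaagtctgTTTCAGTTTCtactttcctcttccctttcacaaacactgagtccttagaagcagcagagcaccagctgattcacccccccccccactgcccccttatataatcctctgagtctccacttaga

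Inflammatory factors did not move as one group. Of 10 tested chemokines 7 (4 without MRC1 or MRC2) fell and 1 (0 without PBS1 or PBS3 or MRC1 or MRC2 or MRC3, 2 without PBS2) rose (median log2 fold change -1.48). Ccl2, which draws monocytes, had 117, 158 and 93.8 CPM in PBS and 17.0, 21.5 and 28.4 CPM in MRC (log2 fold change -2.46 ± 0.26 (SE), 5.50-fold lower, adjusted p = 0.000741). Cxcl5, which draws neutrophils, had 548, 740.5 and 468 CPM in PBS and 137, 150.4 and 214 CPM in MRC (3.51-fold lower, adjusted p = 0.00176). Cx3cl1, fractalkine, had 182, 176 and 190.0 CPM in PBS and 34.7, 40.6 and 49.5 CPM in MRC (4.39-fold lower, adjusted p = 0.000237). MRC levels of these lay under all PBS levels. The 1 chemokine that rose was Cxcl10, an interferon-induced chemokine for T cells, named after its values were seen, at 73.3, 87.7 and 60.5 CPM in PBS and 103, 103.55 and 120.3 CPM in MRC (1.48-fold higher, adjusted p = 0.0376, not called without PBS1 or PBS3 or MRC1 or MRC2 or MRC3). Of 19 tested cytokines 9 (5 without MRC1 or MRC2) fell and 3 (5 without PBS3, 7 without PBS2) rose. Il6 had 1.09, 1.35 and 0.808 CPM in PBS and 18.7, 11.1 and 15.4 CPM in MRC (log2 fold change 3.78 ± 0.29 (SE), 13.7-fold higher, adjusted p = 0.000274). The PBS levels of Il6 were low but above the level of 3 counts. Il11, of the same family, had 7.23, 9.89 and 6.46 CPM in PBS and 54.3, 41.7 and 44.7 CPM in MRC (5.96-fold higher, adjusted p = 0.000274). Ptgs2, the inducible cyclooxygenase that starts prostaglandin synthesis, had 155, 163 and 210.2 CPM in PBS and 2426, 1609 and 1882 CPM in MRC (log2 fold change 3.48 ± 0.22 (SE), 11.2-fold higher, adjusted p = 0.000178). These 3 genes were higher in every MRC library than in any PBS library, which for Il6 and Ptgs2 was a condition of their choice. The growth factor genes Tgfb1 and Tgfb3 fell, Tgfb1 at 116, 133 and 103 CPM in PBS and 38.8, 45.1 and 41.1 CPM in MRC (2.82-fold lower, adjusted p = 0.000488) and Tgfb3 2.28-fold. Tgfb1 levels did not overlap between the groups. Among 20 subunits and feedback inhibitors of NF-kB 6 fell and 3 (0 without PBS1 or MRC1 or MRC2 or MRC3) rose, with Nfkbia, the inhibitor induced by NF-kB itself, at 195, 214 and 173 CPM in PBS and 90.9, 103 and 110.5 CPM in MRC (1.91-fold lower, adjusted p = 0.00293) and the adhesion receptor Icam1 at 14.0, 12.8 and 12.2 CPM in PBS and 3.24, 3.85 and 3.94 CPM in MRC (3.53-fold lower, adjusted p = 0.000488). Over all genes 15.7% fell and 12.9% rose, and the share of NF-kB genes that rose was close to the latter.

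Early response genes split into a group that fell and a group that rose. Of 31 tested immediate early genes 12 rose and 11 (6 without MRC3, 7 without PBS1 or MRC1 or MRC2) fell, both shares above those over all genes. Egr1, the zinc finger factor induced through ERK, had 56.1, 44.9 and 62.5 CPM in PBS and 4.32, 4.26 and 5.34 CPM in MRC (log2 fold change -3.55 ± 0.19 (SE), 11.7-fold lower, adjusted p = 0.000118). Egr3 had 4.58, 4.83 and 5.28 CPM in PBS and 0.636, 0.759 and 0.698 CPM in MRC (6.95-fold lower, adjusted p = 0.000396). Fos had 16.3, 13.3 and 13.3 CPM in PBS and 3.43, 5.02 and 4.74 CPM in MRC (3.24-fold lower, adjusted p = 0.00124) and Fosb 22.8, 12.8 and 20.8 CPM in PBS and 4.26, 4.32 and 5.53 CPM in MRC (3.99-fold lower, adjusted p = 0.00159). All 4 were lower in each MRC library than in any PBS library, which for Egr1 was a condition of its choice. Of 10 tested AP-1 genes 2 (4 without PBS2) rose and 2 fell, the falls being those of Fos and Fosb. The rises were those of Fosl2 at 59.9, 46.0 and 73.9 CPM in PBS and 220.4, 218 and 195 CPM in MRC (3.52-fold higher, adjusted p = 0.000710) and Jun at 134, 117 and 121 CPM in PBS and 236, 239 and 236 CPM in MRC (1.91-fold higher, adjusted p = 0.00149). Plk2 (chr13:110531580-110537378 on GRCm39), a stress-induced kinase and target of p53, had 45.9, 49.9 and 47.7 CPM in PBS and 552, 438 and 471 CPM in MRC (log2 fold change 3.35 ± 0.15 (SE), 10.2-fold higher, adjusted p = 0.000110), and Ier3 rose 2.64-fold. The orphan receptor gene Nr4a3, named after its values were seen, had 5, 3 and 5 counts in PBS and 47, 38 and 43 counts in MRC (adjusted p = 0.00105).

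Feedback genes of the MAPK pathways also moved in both directions. Of 20 tested 11 fell and 4 rose (median log2 fold change -0.61). Spry4, a Sprouty inhibitor, had 73.2, 53.4 and 78.0 CPM in PBS and 21.5, 26.1 and 23.1 CPM in MRC (2.89-fold lower, adjusted p = 0.00105). Etv4, a factor downstream of ERK, had 136, 173 and 120.2 CPM in PBS and 46.9, 52.6 and 49.7 CPM in MRC (2.88-fold lower, adjusted p = 0.000776). Dusp6, the phosphatase of ERK that was named after its values were seen, had 177, 131 and 179 CPM in PBS and 69.1, 76.6 and 76.3 CPM in MRC (2.20-fold lower, adjusted p = 0.00203). These 3 genes were lower in every MRC library than in any PBS library. Dusp1, a phosphatase of several MAP kinases, had 19.1, 22.7 and 19.7 CPM in PBS and 108, 107 and 101 CPM in MRC (log2 fold change 2.36 ± 0.13 (SE), 5.15-fold higher, adjusted p = 0.000118). Dusp8, a related phosphatase, had 14.3, 14.0 and 14.9 CPM in PBS and 43.0, 41.7 and 38.9 CPM in MRC (2.87-fold higher, adjusted p = 0.000294), and Dusp16, another, rose 2.64-fold. PBS and MRC levels overlapped in none of these 6 genes. Kinase activity was not measured. Among 9 ligands and receptors of the EGF family 1 (2 without PBS2) rose and 1 (0 without MRC2, 5 without PBS2) fell, shares under the 12.9% and 15.7% over all genes, the rise being that of Nrg1, neuregulin 1, at 8.53, 6.54 and 10.2 CPM in PBS and 26.4, 26.8 and 26.1 CPM in MRC (3.14-fold higher, adjusted p = 0.000912).

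**Figure D3:**
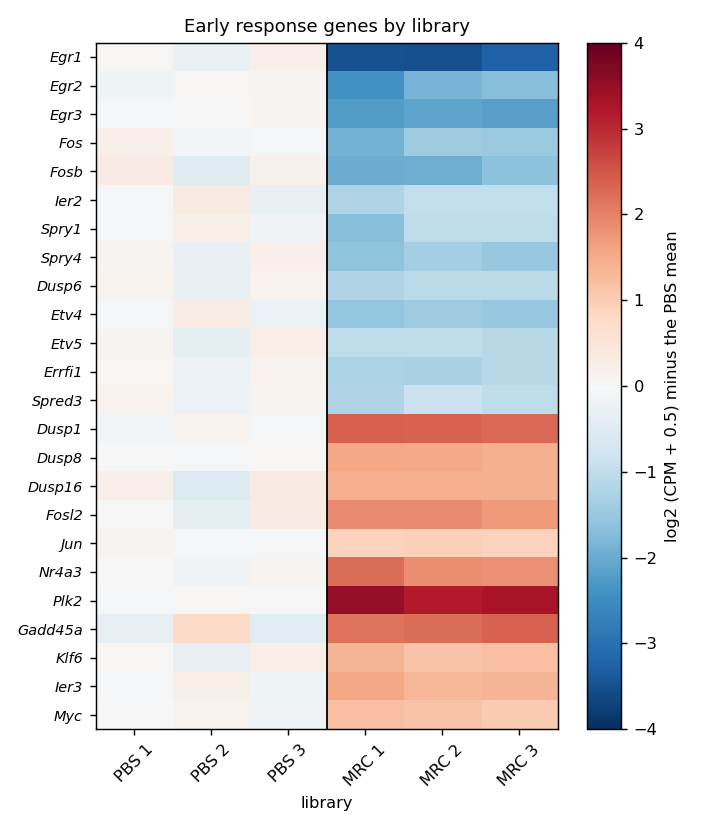
Log2 of CPM plus 0.5 minus the mean of the PBS libraries for 24 early response genes (rows) in each of the 6 libraries (columns), with blue for lower and red for higher levels. The 24 genes were picked by hand with their values known. The EGR, Sprouty and ETV genes, Fos and Fosb are lower in all 3 MRC libraries, and Dusp1, Dusp8, Dusp16, Fosl2, Jun and Plk2 are higher in all 3.

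Many genes of the cell cycle fell. Of 36 tested genes of DNA replication 20 (9 without MRC1, 10 without MRC3, 12 without PBS1 or MRC2) fell and 1 (3 without PBS2) rose (median log2 fold change -0.54), and of 33 genes of G2 and mitosis 23 (9 without MRC1 or MRC2, 10 without PBS1, 13 without MRC3) fell and 0 rose (median -0.64). Tk1, thymidine kinase, had 166, 231 and 152 CPM in PBS and 42.0, 44.0 and 53.6 CPM in MRC (log2 fold change -1.98 ± 0.20 (SE), 3.94-fold lower, adjusted p = 0.000570). Uhrf1, which carries DNA methylation through replication, had 406, 308 and 399 CPM in PBS and 151, 179 and 164 CPM in MRC (2.25-fold lower, adjusted p = 0.00175). Lig1, the replicative ligase, had 193, 209 and 199 CPM in PBS and 95.3, 107 and 99.97 CPM in MRC (1.99-fold lower, adjusted p = 0.00115). All 3 were lower in each MRC library than in any PBS library. Among the mitotic genes Ccnb2, a cyclin of mitosis, had 156, 216 and 135 CPM in PBS and 65.0, 75.1 and 81.7 CPM in MRC (2.29-fold lower, adjusted p = 0.00427). Nusap1 had 198, 219 and 196 CPM in PBS and 106, 106 and 118 CPM in MRC (1.86-fold lower, adjusted p = 0.00190) and Ttk fell 1.71-fold. The MRC levels of the mitotic genes were under all PBS levels as well. E2f1, the factor that drives S phase genes, had 53.2, 53.7 and 53.3 CPM in PBS and 28.2, 31.8 and 29.4 CPM in MRC (1.79-fold lower, adjusted p = 0.00213). Its PBS levels were nearly equal and all above those of MRC. The E2F motif TTTGGCG stood in 7 of 29 (24.1%) of the replication windows and in 0 of 27 (0%) of the mitotic ones. It stood in 285 of 9457 (3.01%) of those of tested genes and in 479 of 27025 (1.77%) of all. Over all genes with a window, 38 of 1273 (2.99%) of those called higher and 41 of 1499 (2.74%) of those called lower held it. Of 32 genes of homologous recombination, Fanconi and checkpoint repair 8 (3 without PBS1 or MRC1 or MRC2, 4 without MRC3, 19 without PBS2) fell and 0 (2 without PBS2) rose, with Fancg, Chek2 and Rad54l lower in every fit (2.04-fold, 1.83-fold and 1.87-fold).

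Some targets of p53 rose. Of 20 tested 6 (10 without PBS2) rose and 3 (1 without PBS1 or MRC1 or MRC2 or MRC3) fell (median log2 fold change 0.30), against 12.9% higher and 15.7% lower over all genes. The count of falls with all 6 libraries was at that share. Without PBS2 the shares over all genes were 24.5% higher and 24.6% lower. Besides Plk2, Mdm2, the ligase that degrades p53, had 89.6, 79.5 and 91.0 CPM in PBS and 159, 152 and 153 CPM in MRC (1.79-fold higher, adjusted p = 0.00226). Aen, an apoptosis nuclease, had 30.1, 27.1 and 29.8 CPM in PBS and 73.2, 74.7 and 71.2 CPM in MRC (2.52-fold higher, adjusted p = 0.000370). Trp53i11 fell 2.66-fold. Cdkn1a, the p21 inhibitor, was not called (log2 fold change 0.12, adjusted p = 0.518), nor was Fas (log2 fold change 0.12, adjusted p = 0.699). Trp53 itself had 83.8, 101 and 75.6 CPM in PBS and 154, 156 and 156 CPM in MRC (1.79-fold higher, adjusted p = 0.00446). The groups overlapped in none of Mdm2, Aen and Trp53.

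Most genes of lytic and apoptotic death were lower or did not pass the test. Of 13 tested gasdermins, inflammatory caspases and partners 7 (4 without MRC1 or MRC2 or MRC3) fell and 1 (0 without PBS1 or MRC1 or MRC2 or MRC3, 2 without PBS2) rose (median log2 fold change -0.53). Gsdmd, the pore protein cut by inflammatory caspases, had 51.0, 75.3 and 48.5 CPM in PBS and 23.9, 25.7 and 25.6 CPM in MRC (2.32-fold lower, adjusted p = 0.00335). Gsdme, a further pore protein of the family, had 27.8, 38.8 and 26.3 CPM in PBS and 32.8, 27.2 and 31.1 CPM in MRC (log2 fold change -0.03, adjusted p = 0.925). The groups overlapped in Gsdme and did not in Gsdmd. Casp8, the initiator caspase of death receptors, had 124, 132 and 109 CPM in PBS and 66.0, 59.4 and 70.8 CPM in MRC (1.86-fold lower, adjusted p = 0.00283). Casp1 and Casp4 were not called (log2 fold changes 0.32 and 0.04, adjusted p = 0.453 and 0.922). The 1 rise was that of Gsdmc4, at 2, 4 and 15 counts in PBS and 39, 20 and 39 counts in MRC (adjusted p = 0.0483), which was called in 2 of the 6 fits that left a library out (not without PBS1, MRC1, MRC2 or MRC3). Nlrp1b, an inflammasome sensor, had 2.19, 2.12 and 1.62 CPM in PBS and 0.191, 0.350 and 0.249 CPM in MRC (7.31-fold lower, adjusted p = 0.00172). Nlrp3, Pycard and Il1b had too few counts to be tested. Cleavage of these proteins, on which pyroptosis depends, was not measured. Of 17 BCL2 family and mitochondrial apoptosis genes 7 (1 without MRC1, 2 without MRC2, 3 without PBS1, 4 without MRC3, 12 without PBS2) fell and 0 (3 without PBS2) rose, with the survival gene Bcl2l1 at 106, 113 and 103.84 CPM in PBS and 55.0, 59.0 and 58.3 CPM in MRC (1.88-fold lower, adjusted p = 0.00139).

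Sterol and sugar metabolism shifted lower in part. Of 23 genes of cholesterol synthesis and uptake 11 (7 without PBS1 or MRC1 or MRC2 or MRC3) fell and 0 (1 without PBS2) rose (median log2 fold change -0.61). Stard4, a sterol carrier, had 74.7, 56.7 and 89.4 CPM in PBS and 26.2, 29.6 and 30.2 CPM in MRC (2.57-fold lower, adjusted p = 0.00194). Mvk, mevalonate kinase, had 19.9, 26.0 and 19.6 CPM in PBS and 8.45, 8.52 and 9.77 CPM in MRC (2.44-fold lower, adjusted p = 0.00179). Hmgcs1 had 89.5, 84.0 and 96.6 CPM in PBS and 47.0, 43.6 and 49.7 CPM in MRC (1.92-fold lower, adjusted p = 0.00157). Fatty acid genes had 2 (0 without MRC1 or MRC3, 1 without PBS1 or MRC2) higher and 1 (0 without PBS1 or MRC1 or MRC2 or MRC3, 3 without PBS2) lower of 16, no more than the shares over all genes. In glycolysis 9 (3 without PBS1 or MRC1 or MRC3, 4 without MRC2) of 20 fell and 2 (4 without PBS2) rose, the rises being those of the glucose transporter Slc2a1 (1.61-fold) and of Pfkfb3, which makes an activator of phosphofructokinase, at 19.6, 11.8 and 19.8 CPM in PBS and 44.8, 41.4 and 39.8 CPM in MRC (2.46-fold higher, adjusted p = 0.00383). Hk1, hexokinase 1, had 231, 211 and 216 CPM in PBS and 121, 141 and 125 CPM in MRC (1.70-fold lower, adjusted p = 0.00383). Targets of the hypoxia-inducible factor were mixed, with 4 higher and 4 (2 without PBS1 or MRC1 or MRC2 or MRC3) lower of 18, against 12.9% and 15.7% over all genes. Ndrg1 had 729, 807 and 706 CPM in PBS and 2149, 2013 and 2080.3 CPM in MRC (2.78-fold higher, adjusted p = 0.000408) and Vegfa 81.5, 84.0 and 81.7 CPM in PBS and 174, 148 and 148 CPM in MRC (1.90-fold higher, adjusted p = 0.00176). Egln3, the oxygen sensor, had 222, 210.1 and 199 CPM in PBS and 84.2, 88.3 and 100.4 CPM in MRC (2.31-fold lower, adjusted p = 0.000741).

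Among matrix proteases, matrix genes and adhesion receptors more members fell than rose. Of 16 proteases and inhibitors 8 (5 without MRC2) fell and 3 (5 without PBS2) rose. Mmp3, stromelysin, had 331, 396 and 289 CPM in PBS and 86.0, 82.0 and 96.2 CPM in MRC (3.84-fold lower, adjusted p = 0.000302). Mmp9, a gelatinase, had 224, 212 and 207 CPM in PBS and 68.3, 70.6 and 79.9 CPM in MRC (2.94-fold lower, adjusted p = 0.000277). Plau, urokinase, had 156, 148 and 138 CPM in PBS and 47.9, 42.1 and 43.7 CPM in MRC (3.30-fold lower, adjusted p = 0.000205). PBS libraries held the higher levels of all 3 proteases. Of 28 collagen, laminin and crosslinking genes 12 (5 without MRC1 or MRC3, 6 without PBS1 or MRC2) fell and 2 (1 without PBS1 or MRC1 or MRC2 or MRC3, 4 without PBS2) rose, with Plod1, a collagen lysyl hydroxylase, at 162, 161 and 161 CPM in PBS and 58.6, 64.4 and 68.4 CPM in MRC (2.53-fold lower, adjusted p = 0.000394). All MRC levels of Plod1 lay under all PBS levels. Of 11 integrin subunits 5 (9 without PBS2) fell and 0 (1 without PBS3) rose (median -0.54), among them Itga3 at 976, 742 and 978 CPM in PBS and 330.1, 379.6 and 336 CPM in MRC (2.58-fold lower, adjusted p = 0.00111) and Itgb3 at 95.4, 62.3 and 103 CPM in PBS and 27.2, 32.0 and 34.2 CPM in MRC (2.79-fold lower, adjusted p = 0.00232). Of 14 mesenchymal genes and regulators 8 (5 without MRC1) fell and 0 (1 without PBS2 or PBS3) rose (median -0.88). Axl, a receptor kinase tied to the mesenchymal state, had 1636, 1080.5 and 1794 CPM in PBS and 589.9, 678 and 668 CPM in MRC (2.33-fold lower, adjusted p = 0.00478). Cnn2, an actin-binding protein, had 187, 232 and 173 CPM in PBS and 46.1, 52.9 and 55.2 CPM in MRC (3.83-fold lower, adjusted p = 0.000306), and Twist1 fell 2.29-fold.

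Epithelial genes moved in both directions. Of 17 tested 4 (8 without PBS2) rose and 4 fell (median log2 fold change 0.10), against 12.9% higher and 15.7% lower over all genes. Grhl2, a factor that maintains epithelial fate, had 4, 6 and 5 counts in PBS and 62, 66 and 64 counts in MRC (adjusted p = 0.000417). Ehf, an ETS factor of epithelia, had 2.71, 2.89 and 3.23 CPM in PBS and 8.26, 6.77 and 7.28 CPM in MRC (2.53-fold higher, adjusted p = 0.00256). Elf3, another ETS factor of epithelia, had 31.5, 44.6 and 32.5 CPM in PBS and 12.2, 13.7 and 14.5 CPM in MRC (2.69-fold lower, adjusted p = 0.00142), and the junction gene Ocln fell 1.78-fold. Krt8 and Krt18, given above, fell as well (2.03-fold and 2.85-fold). Of the 24 genes of clathrin, caveolae and macropinocytosis, routes by which particles can enter cells, 6 (2 without MRC2, 3 without PBS1 or MRC1 or MRC3) fell and 2 (0 without PBS1 or MRC1 or MRC3, 1 without MRC2, 6 without PBS2) rose. The rises were under the share over all genes given above. Caveolar coat genes were among the falls, with Cavin1 at 461, 439 and 435 CPM in PBS and 194, 208 and 225 CPM in MRC (2.13-fold lower, adjusted p = 0.000979) and Cavin3 2.68-fold, while the clathrin genes Clta, Cltb and Cltc were not called (log2 fold changes -0.31, 0.33 and 0.29, adjusted p = 0.453, 0.234 and 0.460).

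**Figure D4:**
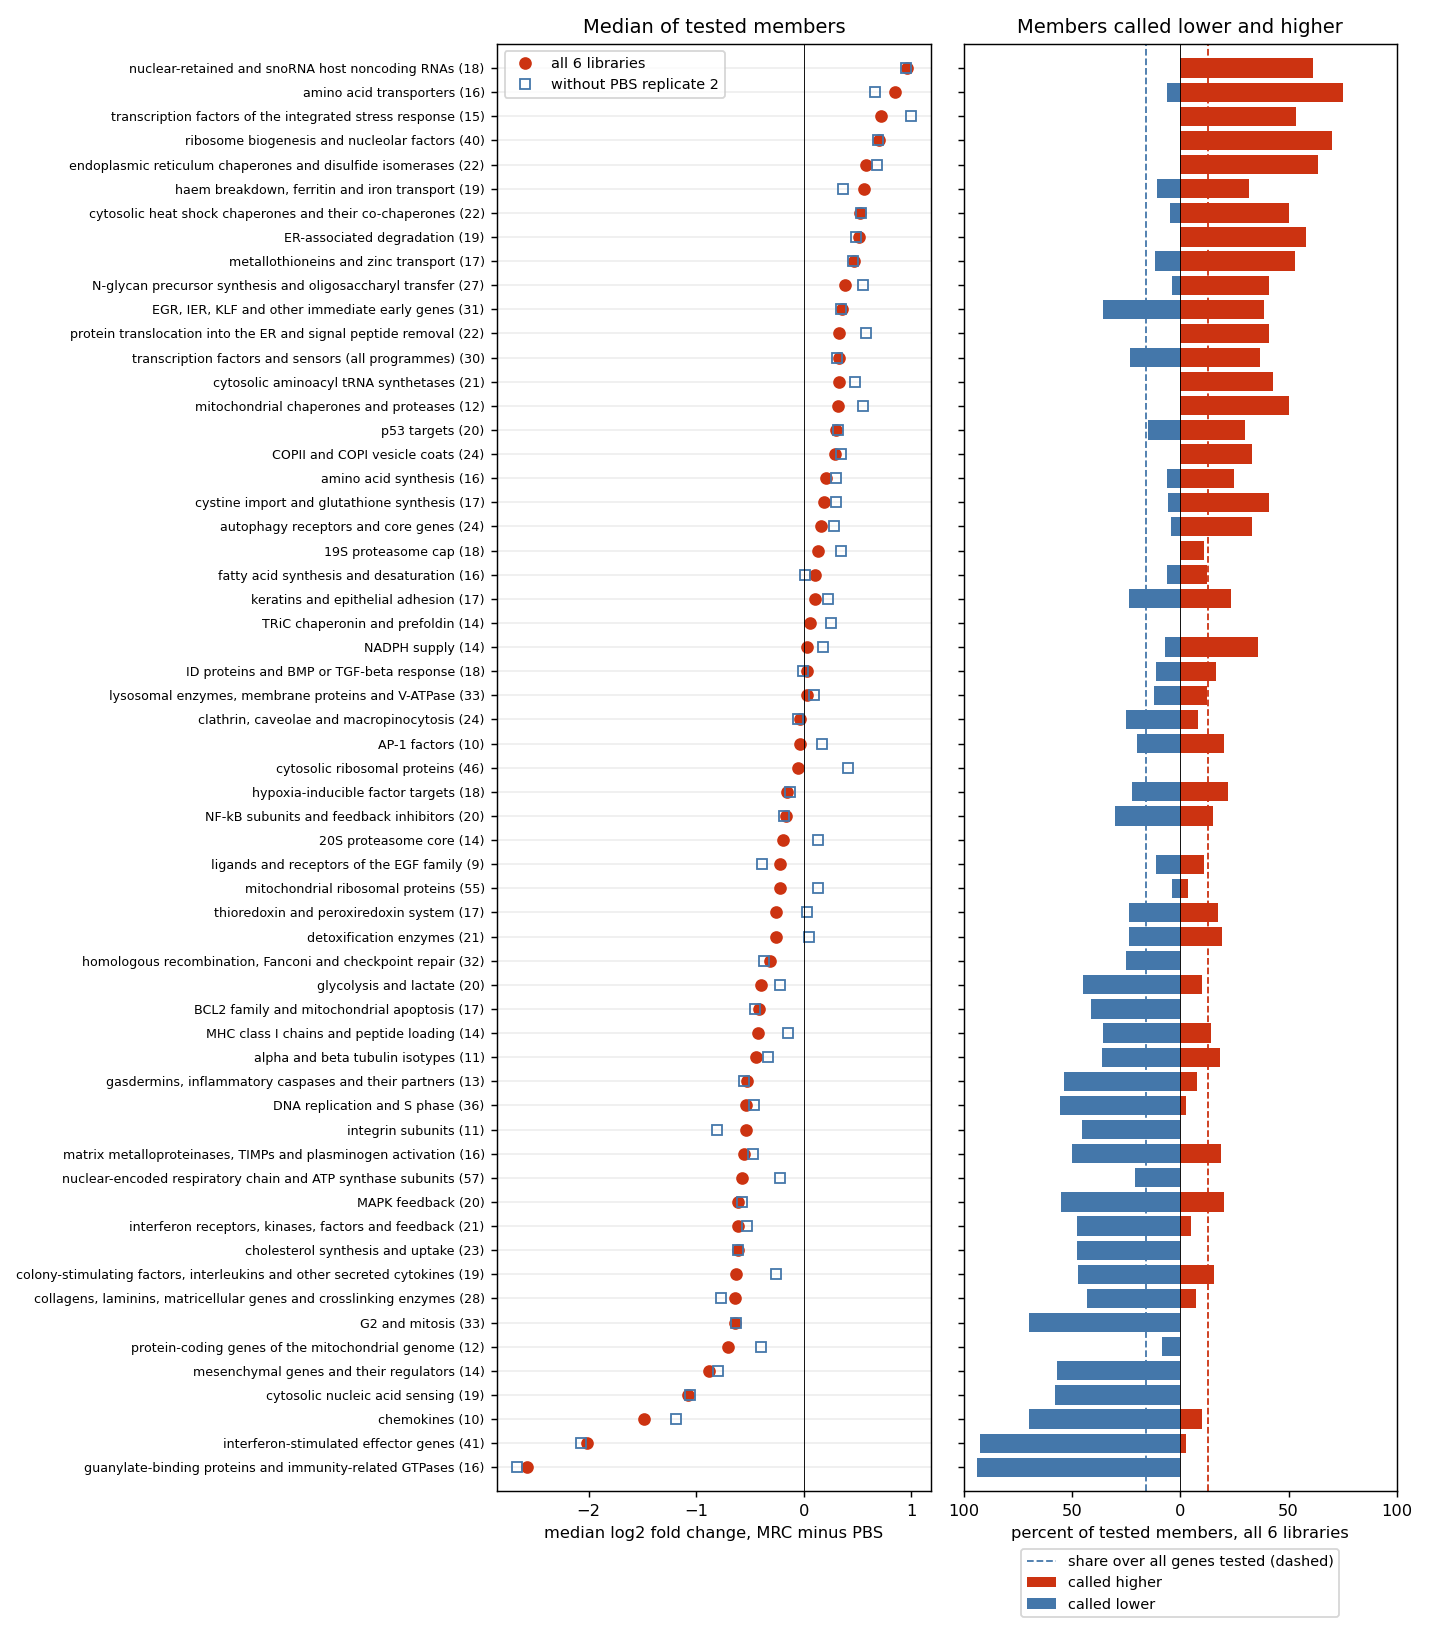
Lists of genes with at least 9 tested members, ordered by the median log2 fold change of MRC against PBS. Left, that median with all 6 libraries (circles) and without PBS2 (squares), from -2.58 for guanylate-binding proteins and immunity-related GTPases to 0.96 for nuclear-retained and snoRNA host RNAs. Right, the percent of tested members called lower (blue) and higher (red), with dashed lines at the shares over all genes tested, 15.7% and 12.9%.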

How the data were processed

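RNA of 4T1 cells was taken up in Trizol and made into libraries with the TruSeq RNA kit of Illumina, per the labels' protocols. The authors deposited, for each library, 1 table of raw counts per gene. Per the file headers, these counts came from featureCounts 2.0.1, which counted read pairs over exons (Ensembl release 104, GRCm39) with no strand option. Overlapping genes on opposite strands are therefore uncertain, as are near-identical copies. Which aligner was used is not given in the sources used here. Of 55416 gene IDs 52083 (94.0%) took a symbol and biotype from GENCODE M21, matched by ID, and promoter windows came from RefSeq (GRCm38.p6). The deposited counts of the 6 libraries were used as they stood.

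Tests used edgeR 4.0.16 in R 4.3.3, genes filtered by expression (count of at least 10, total of at least 15), TMM factors, the quasi-likelihood test and Benjamini-Hochberg adjustment. The script was tested on simulated data with the same spread in all libraries and no length trend. That test does not show how calls behave with a library such as PBS2. CPM were computed with TMM-scaled totals, and fold changes used a prior count of 0.125. Alternatives left out each library in turn, removed a trend with gene length (lowess span 0.3), changed the scaling or the filter, added the replicate number as a block, or used DESeq2 1.42.0 or limma 3.58.1. Replicate pairs differed by more than sampling noise (chi-square per degree of freedom 9.80 to 157), so none was counted as 1 sample. Python 3.11.15 served for tables and plots, with pandas 2.3.3, numpy 2.4.6 and matplotlib 3.10.9.

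Lists, 63 in number with 1450 entries of which 1447 matched a gene ID, were written by hand, and the lists, tests and rules were chosen with earlier results of these data known. Lists were described by counts and medians and not tested. Genes were named by a rule: the 15 largest changes in each direction among protein-coding genes with a proper symbol, called with 6 libraries and in each of the 6 fits that left one out, without overlap and with a mean of at least 5 CPM in the higher group, then, by adjusted p, up to 4 members per list that were called in all of these fits, the listed regulators, gasdermins and caspases, up to 6 genes in each direction near silence in one group, and the 5 largest changes in each direction among non-coding genes. Members of the lists outside that rule (B2m, Cdkn1a, Clta, Cltb, Cltc, Cxcl10, Dusp6, Dusp16, Fas, Gsr, Gss, H2-D1, H2-K1, Hsp90b1, Ifnar1, Ifnar2, Ifngr1, Ifngr2, Isg15, Krt8, Krt18, Mt1, Nr4a3, Oasl1, Phgdh, Psat1, Rsad2 and Txn1) were chosen after their values were seen. A few genes chosen by the rule are left out of the text.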

Additional observations from a re-analysis of the deposited data

How the results depend on the processing

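With one library left out, the number of genes called ran from 1746 to 6514 (3706 with all 6), of genes called higher from 757 to 3247 and of genes called lower from 989 to 3267. The highest values were without PBS2 and the lowest without MRC1. With the replicate number as a block 2222 genes were called, 1002 higher and 1220 lower. Same-numbered libraries did not deviate together (correlations -0.005, -0.199 and -0.211), and no library correlated best with its own number. These deviations are from means of 3 libraries, with PBS2 far from the other PBS libraries. They therefore cannot decide whether same-numbered samples were paired. Of the 2222 calls with the block, 2219 were shared with the fit without it. With voom quality weights of limma 8495 genes were called, 4247 higher and 4248 lower. The cause of these differences was not tested. The number called at least 2-fold (1691 with all 6 libraries) stayed within 1.5 times under every alternative. DESeq2 called 4514, DESeq2 size factors in edgeR 3736, no count filter 4299, a minimum count of 50 3353, and removal of the length trend 5046. Without adjustment 5376 genes had p under 0.05.

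Of 229 named genes that were called, all kept direction and call without PBS2, without PBS3, with DESeq2, with its size factors, with voom and with no filter, and 222 were tested, and called, at a minimum count of 50. Most of them were named only if called in every fit that left a library out. Their calls in those fits were thus fixed by the rule and say nothing of how stable calls are. Over all genes 1645 of 3706 calls held in every such fit. Calls were lost for 6 genes without MRC1, 4 without MRC2, 5 without MRC3, 5 without PBS1, 2 with the block (Rela and Gsdmc4) and 1 with the length trend removed (Atp6v1h). Only uncalled genes reversed. Nfe2l2 had a log2 fold change of -0.043 to 0.039 with one library left out (0.039 without PBS2, adjusted p = 0.781), 0.00072 without a filter, 0.035 with the length trend removed and 0.0405 with voom (adjusted p = 0.587). With one library left out Eif2ak4 ran from -0.27 without PBS2 to 0.063 without PBS3, Gsdme from -0.14 without PBS3 to 0.17 without PBS2, and Casp4 from -0.11 without PBS3 to 0.33 without PBS2. With voom Gsdme had 0.14, and Casp4 had 0.28 and was called (adjusted p = 0.0267).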

Other observations

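A few genes were near silence in one group, with at most 3 counts in each of its libraries, and had at least 1 CPM in each library of the other. There were 5 such genes with the higher level in MRC and 4 with the higher level in PBS. Dnmt3l, a cofactor of DNA methylation in germ cells, had 3, 2 and 1 counts in PBS and 54, 65 and 81 counts in MRC. Trdc, the constant segment of the T cell receptor delta chain, had 1, 3 and 1 counts in PBS and 48, 35 and 58 counts in MRC, while the T cell marker Cd3e was at 0 in all 6 libraries. Fcgr1, the high-affinity IgG receptor of myeloid cells, had 1, 1 and 0 counts in PBS and 16, 21 and 23 counts in MRC, while the myeloid marker Adgre1 was at 0 in all 6. In the other direction, Batf2, an interferon-induced factor, had 68, 81 and 57 counts in PBS and 1, 1 and 1 counts in MRC. Cabp4, a calcium-binding protein, had 24, 23 and 18 counts in PBS and 2, 3 and 2 counts in MRC, and Plxnc1, a semaphorin receptor, had 26, 20 and 17 counts in PBS and 2, 1 and 3 counts in MRC. These values are descriptions of single libraries, and neighbouring transcription was not tested.

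Non-coding RNAs were called in both directions. Of 18 tested nuclear-retained RNAs and hosts of small nucleolar RNAs 11 (5 without MRC1, 6 without PBS1 or MRC2, 7 without MRC3) rose and 0 (1 without PBS2) fell (median log2 fold change 0.96). Snhg12 had 14.8, 32.9 and 12.2 CPM in PBS and 99.3, 103 and 103.96 CPM in MRC (log2 fold change 2.35 ± 0.35 (SE), 5.11-fold higher, adjusted p = 0.00294), with PBS2 the highest PBS library. Snhg5 had 40.01, 73.6 and 39.1 CPM in PBS and 211, 175 and 205 CPM in MRC (3.87-fold higher, adjusted p = 0.00188), and Mir17hg, the host of a microRNA cluster induced by MYC, had 16.3, 15.1 and 15.3 CPM in PBS and 30.2, 29.7 and 30.2 CPM in MRC (1.92-fold higher, adjusted p = 0.00154). Of 291 tested genes of the antisense biotype 8 rose (2.75%, against 12.9% over all genes) and 45 fell (15.5%, against 15.7%). Because the counting used no strand, their reads cannot be told apart from reads of the partner gene. Gm17173, of the antisense biotype, had 0.312, 0.294 and 0.435 CPM in PBS and 6.99, 6.54 and 5.48 CPM in MRC (17.99-fold higher, adjusted p = 0.000187). Ptprv, annotated as a processed transcript, was at 5.20, 4.71 and 9.82 CPM in PBS and 0.127, 0.700 and 0.449 CPM in MRC (14.98-fold lower, adjusted p = 0.00189).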
